A study of Homo sapiens with 2 samples.

Results

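The 10 genes described here are matrix metalloproteinases and the proteins that hold them in check: TIMP1, TIMP2, TIMP3, TIMP4, RECK, MMP1, MMP2, MMP9, MMP14 and MMP15. They were taken by symbol from a table of 58735 genes, and each symbol matched 1 row. The table came from 2 RNA sequencing libraries of NCI-H460, a human large cell lung carcinoma line whose source tissue is labelled as lung, pleural effusion. The design text of the series names NCI-H469 instead, and the sample labels were followed. One library, labelled siControl, came from cells with the genotype label WT that were transfected without an siRNA against CYP4F11. The other, labelled siCYP4F11, came from cells that received an siRNA targeting CYP4F11, a cytochrome P450 that hydroxylates fatty acids. Both were transfected with a lipid reagent for 24 h, per the labels' protocol, and carry the same batch label. Each group is 1 library, so no difference below has a replicate check.

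Matrix metalloproteinases are zinc proteases that cut collagens and other proteins outside the cell. They are made as inactive proenzymes, and most are secreted, while MMP14 and MMP15 are held in the plasma membrane. TIMPs are small secreted inhibitors that block the active site, and RECK is a membrane-anchored inhibitor. In carcinomas this balance is studied for its part in invasion and migration, and the series title names migration together with proliferation.

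The libraries held 16207785 counts (siControl) and 13002179 counts (siCYP4F11). CYP4F11 itself stood at 3180 and 972 counts, or 197 and 74.5 CPM (counts divided by the TMM-scaled library size), which leaves 37.8% of the control level (95% counting interval 35.1% to 40.6%). A gene counts as measured where its mean over both libraries reached 1 CPM, which 13942 genes did. The keratins KRT8, KRT18 and KRT19 were abundant, at 1275, 462 and 1746 CPM in siControl and 1038, 436 and 1427 CPM in siCYP4F11, with log2 ratios of -0.30, -0.08 and -0.29 whose counting intervals lay below 0. In contrast, the epithelial markers EPCAM and CDH1 were nearly absent, with 6 and 8 counts for EPCAM and 1 and 0 for CDH1, siControl first. Of 9 fibroblast markers, 5 were measured. Their summed level over the 9 was 77.9 CPM in siControl and 87.2 in siCYP4F11, mostly COL3A1 and LUM, and all 5 had log2 ratios above 0, with LUM at 0.59 (0.32 to 0.86), while FAP, THY1 and PDGFRA had 0 reads. Endothelial and leukocyte markers summed to 0.186 and 1.42 CPM in siControl and to 0.460 and 2.60 in siCYP4F11, and CD14, the 1 measured leukocyte marker, had 20 and 33 counts, a log2 ratio of 1.01 (0.18 to 1.91) that passes the size rule described with the 10 genes. The part of these markers in the results below was not tested. Since the libraries are bulk RNA, fewer cells with a transcript and less of it per cell cannot be told apart.

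Within this set, NCI-H460 cells carried far more inhibitor than enzyme transcript. On a scale that divides by gene length (TPM), the 4 TIMP genes summed to 507 TPM in siControl and 497 in siCYP4F11. The 5 MMP genes of the set summed to 72.2 and 85.6 TPM. The TIMP sum was therefore 7.02 times the MMP sum in siControl and 5.81 times in siCYP4F11. These ratios hold for the 5 listed MMP genes and the deposited gene lengths only. In siControl TIMP1 stood at 469 TPM and MMP1 at 60.3 with those lengths. Longest transcript lengths put them at 501 and 45.8 TPM, so the ratio depends on the length chosen. The other 18 matrix metalloproteinases, which the MMP sum leaves out, held 61.1 TPM in siControl and 50.8 in siCYP4F11. TIMP1 supplied 92.5% of the TIMP sum in siControl, and MMP1 supplied 83.6% of the MMP sum, so these sums chiefly describe that pair of genes.

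**Figure D1:**
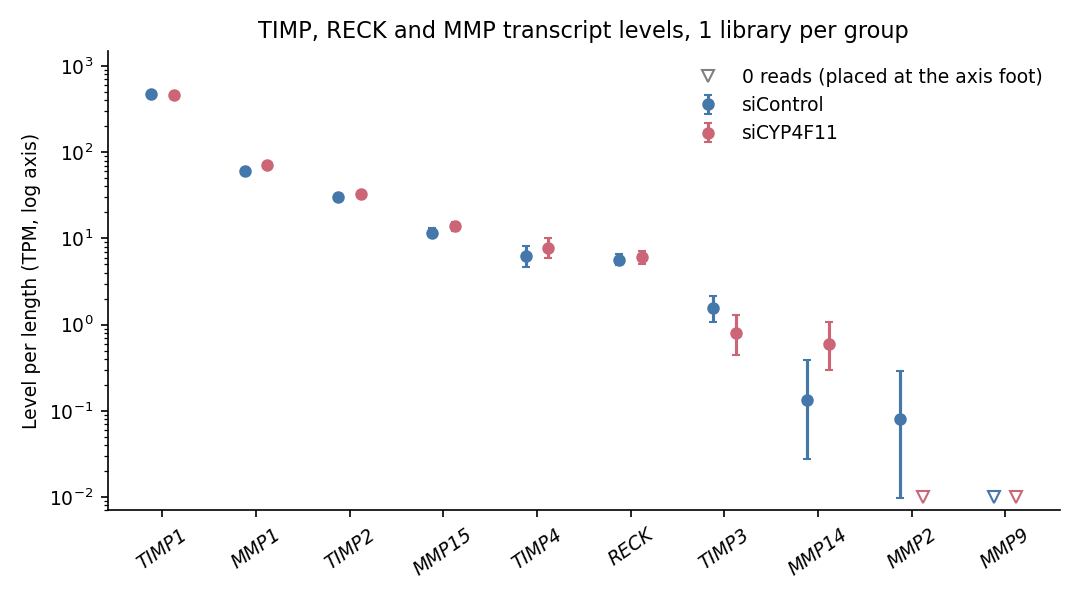
Transcript level per length (TPM, log axis) of the 10 genes in the siControl library (blue) and the siCYP4F11 library (red), in order of mean level; bars are exact 95% Poisson intervals, which cover counting error only, and open triangles at the foot mark 0 reads. TIMP1 lies at 469 and 456 TPM, far above every other gene of the set, and MMP9 has 0 reads in both libraries.

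In order of mean TPM the genes ran TIMP1, MMP1, TIMP2, MMP15, TIMP4, RECK, TIMP3, MMP14, MMP2 and MMP9. The counting intervals of TIMP4 and RECK overlapped in both libraries. TIMP4 was at 6.22 TPM (4.65 to 8.16) and RECK at 5.68 (4.87 to 6.59) in siControl. Taking the longest annotated transcript as the length reversed this pair in siControl, to 4.72 TPM for TIMP4 and 5.34 for RECK. Above them the intervals of neighbouring genes were separate in both libraries. TIMP3 and MMP14 were separate in siControl, but their intervals overlapped in siCYP4F11, at 0.793 TPM (0.444 to 1.31) and 0.599 TPM (0.299 to 1.07). MMP14 and MMP2 overlapped in siControl, at 0.133 and 0.0801 TPM.

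Of the 10 genes 7 were measured, and TIMP3 was the one furthest from equal between the libraries. A gene was called higher or lower by the size rule when its log2 ratio of siCYP4F11 over siControl reached 1 in either direction with a 95% counting interval that left out 0. No measured gene of the set passed, higher or lower, beside 0.703% of all measured genes called higher and 1.26% called lower. By the interval rule, which asks only that the counting interval exclude 0, MMP1 and MMP15 were higher and TIMP3 was lower, which is 2 and 1 of 7. Of all measured genes, 18.6% were higher and 19.2% lower by that rule, so a call by it is common among these libraries. The median log2 ratio of the 7 was 0.12, with 5 above 0 and 2 below, beside a median of -0.006 over all measured genes. After a correction for GC content (a smooth trend of the ratio on the GC content of the transcript, removed), the median of the 7 was 0.19, and TIMP2 was higher by the interval rule too.

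**Figure D2:**
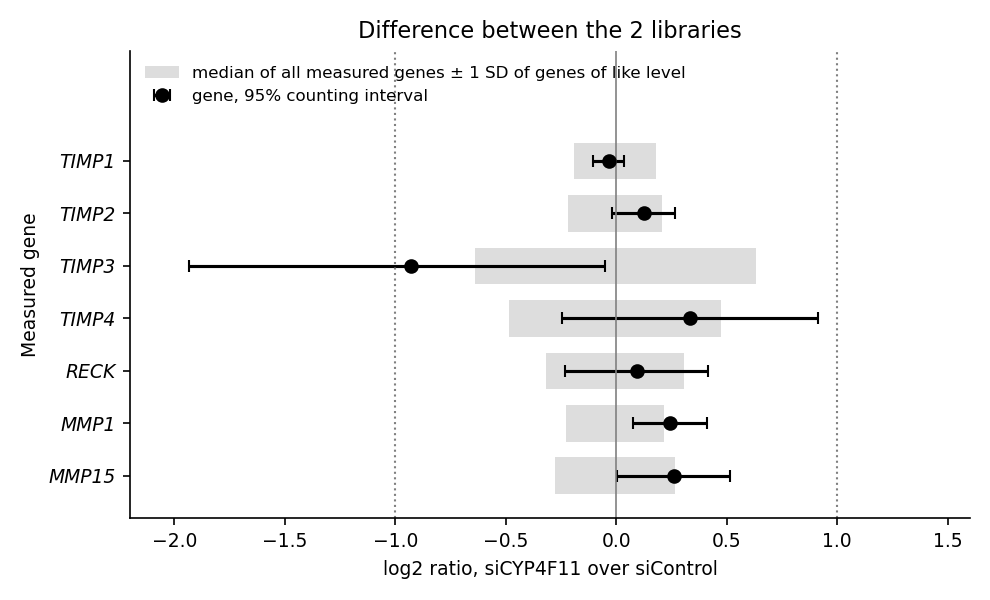
Log2 ratio of siCYP4F11 over siControl for the 7 measured genes (points) with exact 95% counting intervals (bars); grey boxes span 1 SD either side of the all-gene median, the SD being taken over measured genes within 2-fold of the same mean CPM, and dotted lines mark a log2 ratio of 1 in either direction. TIMP3 at -0.93 lies outside its box, TIMP1 at -0.03 is near 0, and MMP1 at 0.24 lies just past the edge of its box.

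TIMP1 encodes the secreted inhibitor that also binds the tetraspanin CD63 at the cell surface. It lies on the plus strand of chromosome X from 47582313 to 47586789 (GRCh38; ENSG00000102265), within the span of SYN1 on the other strand, which had 1 count in each library. TIMP1 had 3657 counts in siControl and 2887 in siCYP4F11, or 227 and 221 CPM. The 2 libraries were level, with a log2 ratio of -0.03 (-0.11 to 0.04). After the GC correction it was 0.06 (-0.01 to 0.13), so its sign is not settled. With 3657 counts the counting error is small: as far as it goes, the siCYP4F11 level was between 92.9% and 103% of control. That range does not include the shift from the GC correction. The SD of log2 ratios among the 1496 genes within 2-fold of the mean CPM of TIMP1 was 0.19.

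TIMP2, which inhibits MMP2 and, bound to MMP14, also helps to activate it, is at 78852977 to 78925387 on chromosome 17, minus strand. It had 863 and 761 counts, siControl first, or 53.5 and 58.3 CPM. Its log2 ratio was 0.12 (-0.02 to 0.27), and 0.19 (0.05 to 0.33) after the GC correction, where the interval excluded 0. TIMP2 shares 8.28% of its 50-base words with other genes. The SD of log2 ratios among the 4742 genes within 2-fold of its mean CPM was 0.21, above the size of its own ratio.

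TIMP3 encodes the TIMP that binds the extracellular matrix and inhibits ADAM17 as well as MMPs. The gene is on the plus strand of chromosome 22 from 32801701 to 32863043, within SYN3 on the other strand, which had 0 reads in both libraries. TIMP3 had 36 counts in siControl and 15 in siCYP4F11, or 2.23 and 1.15 CPM. It was lower in siCYP4F11, at 52.5% of control (26.2% to 96.5%), a log2 ratio of -0.93 (-1.93 to -0.05). The ratio misses the size rule narrowly and passes a 1.5-fold threshold. Genes of like level spread widely: of 2293 within 2-fold of its mean CPM, 12.8% had a log2 ratio at least as large in size, and their SD was 0.64.

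TIMP4, an inhibitor best known from heart tissue, is at 12153051 to 12159351 on chromosome 3, minus strand, within SYN2 on the other strand, which had 3 and 0 counts. TIMP4 shares 7.56% of its 50-base words with SYN2. It had 52 and 53 counts, or 3.22 and 4.06 CPM, a log2 ratio of 0.33 (-0.25 to 0.91). At this depth no difference could be resolved.

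RECK (reversion inducing cysteine rich protein with kazal motifs), on the plus strand of chromosome 9 from 36036433 to 36124451, had 174 and 150 counts. The levels were 10.8 and 11.5 CPM, a log2 ratio of 0.09 (-0.23 to 0.42), or 0.05 after the GC correction. Of the 5 inhibitors, then, 1 was lower by the interval rule and 4 had intervals that included 0. Over all measured genes 19.2% were lower and 18.6% higher by that rule.

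Of the 5 enzymes, 2 were measured. MMP1, the interstitial collagenase that cuts fibrillar collagen, was the main one, at 102789920 to 102798160 on chromosome 11, minus strand. It had 602 counts in siControl and 576 in siCYP4F11, or 37.3 and 44.1 CPM. The siCYP4F11 level was 118% of control (105% to 133%), a log2 ratio of 0.24 (0.08 to 0.41). Of 4969 genes of like level, 25.9% differed at least as much in either direction. MMP1 lies within the pseudogene WTAPP1 on the other strand, which had 16 and 5 counts.

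MMP15, also known as MT2-MMP, lies on the plus strand of chromosome 16 from 58025566 to 58046901. It had 260 and 252 counts, or 16.1 and 19.3 CPM, a log2 ratio of 0.26 (0.01 to 0.52). The interval reaches almost to 0, and 31.4% of 4188 genes of like level differed at least as much. With a transcript GC content of 66.0%, it falls in the top 10% by GC content of the genes with a mean of 10 CPM or more, whose log2 ratios had a median of -0.13, beside 0.15 in the bottom 10%. After the GC correction MMP15 stood at 0.40 (0.14 to 0.65) and MMP1, with 43.4% GC, at 0.19 (0.03 to 0.36).

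MMP14, MMP2 and MMP9 did not reach a mean CPM of 1. MMP14, or MT1-MMP, the membrane protease that activates the proenzyme of MMP2, had 3 counts in siControl and 11 in siCYP4F11. This was 0.186 and 0.843 CPM, a ratio of 4.53 with a counting interval from 1.20 to 25.3. Its log2 ratio depended on the constant added to each count, at 2.02 with 0.5 and 1.68 with 2. The gene lies on the plus strand of chromosome 14 from 22836557 to 22849027. MMP2, gelatinase A on chromosome 16, had 2 and 0 counts, both at or under the floor of 3 counts. MMP9, gelatinase B on chromosome 20, had 0 reads in both libraries, which allows up to 0.186 CPM in siControl and 0.230 in siCYP4F11 by that floor, and MMP9 shares 11.1% of its 50-base words with other genes.

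**Figure D3:**
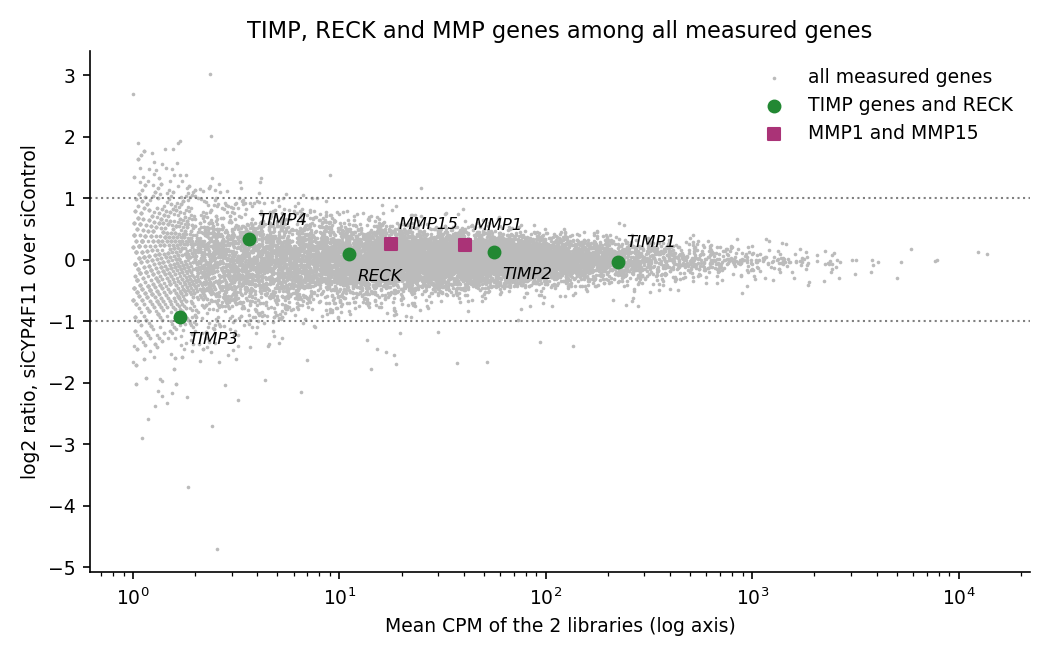
Log2 ratio of siCYP4F11 over siControl against the mean CPM of both libraries (log axis) for the 13942 measured genes (grey), with the TIMP genes and RECK (green circles) and MMP1 and MMP15 (purple squares); dotted lines mark a log2 ratio of 1 in either direction. TIMP3, at a mean of 1.69 CPM, sits where the grey cloud is wide, and TIMP1, at 224 CPM, where it is narrow.

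The sequence in front of 3 of the genes is shown: TIMP1, TIMP3 and MMP14. Of the genes with a sequence window, only these had at least 100 bases in a row before the start site free of annotated exons. The stretches come from RefSeq windows on GRCh38.p14, cut where annotated exons begin, and run 5′ to 3′ on the strand of the gene. Capitals mark matches on either strand to the Sp1 box GGGCGG or the CCAAT box. TIMP1 is chrX:47582186-47582312, TIMP3 is chr22:32801455-32801700 and MMP14 is chr14:22836335-22836556, all on the plus strand.
TIMP1: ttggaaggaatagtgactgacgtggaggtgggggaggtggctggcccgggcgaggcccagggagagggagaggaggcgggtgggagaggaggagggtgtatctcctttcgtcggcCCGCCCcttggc
TIMP3: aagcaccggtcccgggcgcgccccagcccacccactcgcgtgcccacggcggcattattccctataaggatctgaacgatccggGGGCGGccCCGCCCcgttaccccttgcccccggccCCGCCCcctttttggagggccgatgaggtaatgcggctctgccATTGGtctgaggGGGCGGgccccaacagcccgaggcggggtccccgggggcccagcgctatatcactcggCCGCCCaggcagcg
MMP14: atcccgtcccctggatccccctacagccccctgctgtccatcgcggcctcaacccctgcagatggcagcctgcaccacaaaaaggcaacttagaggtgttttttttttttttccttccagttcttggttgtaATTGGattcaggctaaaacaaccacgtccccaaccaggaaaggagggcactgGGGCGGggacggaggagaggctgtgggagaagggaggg

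The TIMP3 stretch holds 5 Sp1 boxes and 1 CCAAT box, the MMP14 stretch 1 of each, and the TIMP1 stretch 1 Sp1 box. RefSeq windows of 300 bases, from 250 before the start site to 50 after it, were available for 6 of the 10 genes: TIMP1, TIMP3, TIMP4, RECK, MMP14 and MMP15. All 6 hold an Sp1 box, beside 45.0% of 35116 windows of the same length. The windows of TIMP3, TIMP4, MMP14 and MMP15 hold a CCAAT box, beside 34.6% of all windows. None holds the AP-1 site TGAGTCA (4.95% of windows), the TATA box TATAAA (11.5%) or the cAMP response element TGACGTCA (1.85%). The 6 windows had 55.0% to 75.3% GC, lowest in MMP14 and highest in MMP15, beside a median of 58.7% over all windows. The Sp1 box consists of G and C alone.

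Among the other 18 matrix metalloproteinases, 5 were measured, and their median log2 ratio was -0.23, with 2 above 0 and 3 below. None passed the size rule. MMP17, a membrane-anchored protease (MT4-MMP), was lower by the interval rule, with 604 counts in siControl and 363 in siCYP4F11. The levels were 37.4 and 27.8 CPM, a log2 ratio of -0.43 (-0.62 to -0.24). Of genes of like level, 3.44% lay as low or lower and 6.30% differed at least as much in either direction. After the GC correction MMP17 was at -0.28 (-0.48 to -0.09). MMP17 and MMP1 thus had nearly the same CPM in siControl, with log2 ratios of opposite sign and intervals that did not overlap. MMP16 (MT3-MMP) had 394 and 372 counts, at a log2 ratio of 0.22 (0.02 to 0.43), which was 0.07 after the GC correction, with an interval that included 0. MMP10, a stromelysin, had 192 and 132 counts, at a log2 ratio of -0.23 (-0.57 to 0.09). MMP24, with 31 and 15 counts, was at -0.72 (-1.74 to 0.19), and MMP11, with 17 and 20 counts, at 0.53 (-0.47 to 1.56). MMP24 shares 18.7% of its 50-base words with other genes. Per length, MMP17 (29.8 TPM) and MMP10 (21.6 TPM) followed MMP1 (60.3 TPM) as the most abundant MMP transcripts in siControl. In siCYP4F11 the same 3 genes stood at 22.1, 18.3 and 71.1 TPM. Of the 18, 7 had 0 reads in both libraries.

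**Figure D4:**
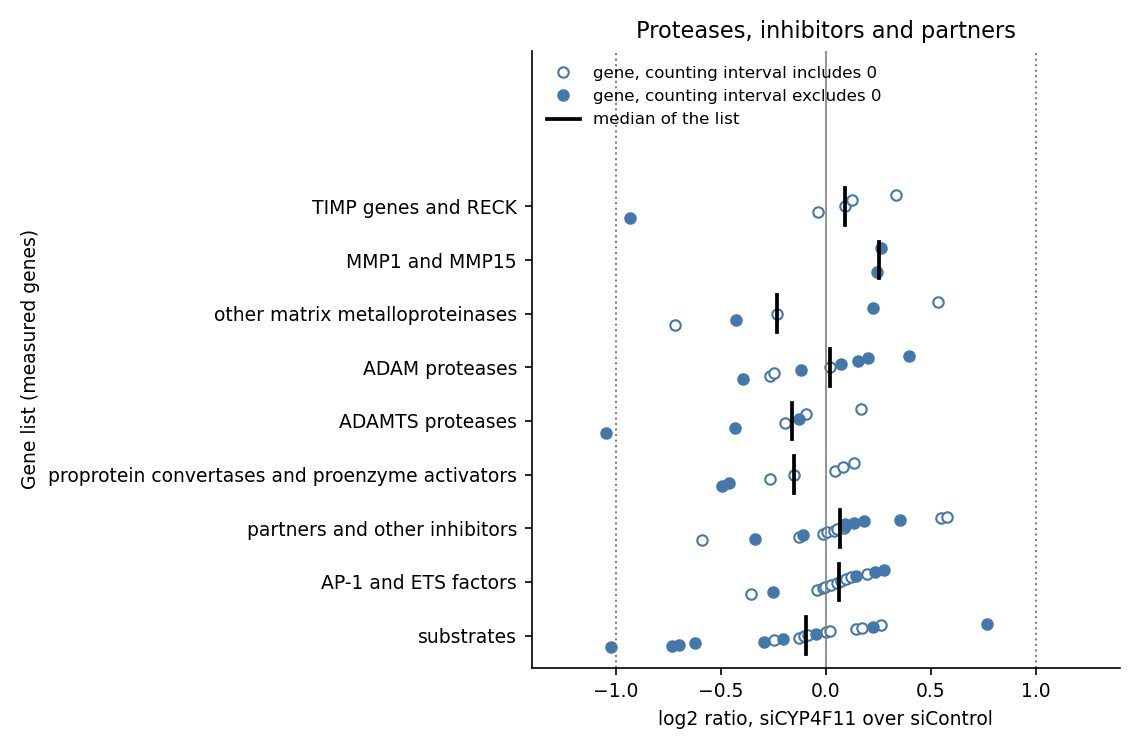
Log2 ratio of siCYP4F11 over siControl for the measured genes of each list (points; filled where the counting interval excludes 0), with the list's median (black bar); dotted lines mark a log2 ratio of 1 in either direction and points are offset vertically only to separate them. The medians run from -0.23 for other matrix metalloproteinases to 0.25 for MMP1 and MMP15, and most genes lie between the dotted lines.

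ADAM proteases, membrane enzymes that shed proteins from the cell surface, had members on both sides of 0. Of 15 genes 9 were measured, with a median log2 ratio of 0.02 that turned to -0.01 after the GC correction. By the interval rule 4 were higher and 2 lower, beside 18.6% higher and 19.2% lower over all measured genes. ADAM22, a family member without protease activity, had 187 and 199 counts, at a log2 ratio of 0.40 (0.10 to 0.69). After the GC correction ADAM22 was at 0.31 (0.01 to 0.60). ADAM19 had 747 and 460 counts, at a log2 ratio of -0.39 (-0.56 to -0.22). ADAM17, the sheddase that TIMP3 inhibits, was looked up after its value was seen. It had 1896 and 1707 counts, at a log2 ratio of 0.15 (0.06 to 0.25), and it shares 13.8% of its 50-base words with other genes.

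ADAMTS proteases, secreted relatives that cut proteoglycans and procollagens, had 6 of 19 genes measured, 5 of them below 0, and a median of -0.16. ADAMTS13, which cuts von Willebrand factor, had 80 and 31 counts. It was called lower by the size rule, at -1.05 (-1.71 to -0.45), but at -0.92 after the GC correction it was short of the 2-fold line. ADAMTS9 had 177 and 106 counts, at a log2 ratio of -0.43 (-0.79 to -0.08).

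Of 14 convertases and proteases that activate the proenzymes, 7 were measured, with a median of -0.15. FURIN, which cleaves the membrane MMPs in the secretory pathway, was lower by the interval rule. It had 1694 counts in siControl and 974 in siCYP4F11, or 105 and 74.6 CPM, a log2 ratio of -0.49 (-0.61 to -0.38). Among genes of like level 0.820% lay as low or lower and 1.38% differed at least as much in either direction. After the GC correction FURIN was at -0.37 (-0.49 to -0.26). PLAU, the urokinase that generates plasmin, had 315 and 185 counts, at a log2 ratio of -0.46 (-0.73 to -0.20), and shares 20.7% of its 50-base words with other genes. The other 5 had intervals that included 0, and over all measured genes 19.2% were lower by the interval rule.

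Partners and other inhibitors had log2 ratios from -0.59 to 0.58, with a median of 0.07 over 16 measured of 21. By the interval rule 5 were higher and 2 lower, beside 18.6% higher and 19.2% lower over all measured genes. LRP1, an endocytic receptor that clears MMPs and TIMPs, had 547 and 350 counts, at a log2 ratio of -0.34 (-0.54 to -0.14). After the GC correction LRP1 was at -0.23 (-0.43 to -0.03). BSG, a surface protein known to induce MMPs in neighbouring cells, and CD63, the partner of TIMP1, were looked up after their values were seen. BSG had a log2 ratio of -0.01 (-0.05 to 0.03) and CD63 one of 0.14 (0.08 to 0.19).

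AP-1 and ETS factors, which bind the promoters of many MMP genes, had a median of 0.06 over 14 measured of 17. None passed the size rule. By the interval rule 3 were higher and 1 lower, beside 18.6% higher and 19.2% lower over all measured genes. ATF2 had 1083 and 1060 counts, at a log2 ratio of 0.28 (0.15 to 0.40), which was 0.13 (0.01 to 0.26) after the GC correction. FOSL2 had 3060 and 2080 counts, at a log2 ratio of -0.25 (-0.33 to -0.17).

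Substrates of these proteases had a median of -0.10 over 18 measured of 22, with 7 above 0 and 11 below. By the interval rule 7 were lower and 2 higher, and 9 had intervals that included 0, beside 19.2% lower and 18.6% higher over all measured genes. VCAN, a large matrix proteoglycan, had 66 and 26 counts and was called lower by the size rule, at -1.02 (-1.75 to -0.36), but at -0.97 with 2 added to each count it was short of the line. DCN, a small leucine-rich proteoglycan, had 26 and 36 counts, at a log2 ratio of 0.77 (0.01 to 1.56). After the GC correction DCN was at 0.64 with an interval that included 0.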

How the data were processed

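RNA was selected by poly-A and made into strand-specific libraries, per the labels' protocols. The authors deposited 1 table of raw read counts per gene, 1 column per library, with gene lengths. Build GRCh38 and the tools featureCounts 2.0.6, HISAT2 2.2.1, edgeR 4.0.16 and fastp are listed in the submitters' processing notes. Parameters and strand handling are not given in the sources used here, so overlapping genes may hold each other's reads. All 58735 identifiers, symbols and coordinates equal those of GENCODE 29, and the deposited lengths equal its exon unions.

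From the counts, TMM library sizes (edgeR 4.0.16, R 4.3.3) gave CPM and log2 ratios with 0.5 added. The 95% intervals are exact (Clopper-Pearson for ratios, Poisson for levels) and cover counting error only, as reads are not independent molecules. The floor is 3 counts. No p-value was computed, since no group has a replicate and edgeR's quasi-likelihood test needs them. TPM used the deposited lengths. GC correction was a lowess (span 0.3) on the GC content of the longest transcript. Words of 50 bases shared between transcripts of different genes were counted for CYP4F11 and the listed genes, but not for the cell type markers. The intervals and rules were run on simulated Poisson counts, which vary by counting error only. That run checks the calculation and not the spread between libraries. The genes and lists were chosen with earlier results of these data known. Named beyond the 10 genes were CYP4F11, all measured MMPs, and up to 4 genes per list past the size rule, or the 2 with the largest ratios whose interval excluded 0 where fewer than 2 passed. One such gene is not reported here. Alternatives were total counts, DESeq2 1.42.0 size factors, upper-quartile factors, 2 added to each count, other filters, a 1.5-fold threshold, longest transcript lengths and the GC correction. Python 3.11.15, numpy 2.4.6, scipy 1.17.1, pandas 2.3.3, statsmodels 0.14.6 and matplotlib 3.10.9 were used.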

Additional observations from a re-analysis of the deposited data

How the results depend on the processing

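Over other library sizes, 2 added to each count and the GC correction, the log2 ratios of the 7 measured genes and MMP14 kept their direction, except TIMP1 with the GC correction (0.0572). There the median of the 7 was 0.19, up from 0.12, and 3 of them were higher by the interval rule, up from 2. The ADAM list's median also changed sign with it (-0.0136). The log2 ratio of TIMP3 ran from -0.93 to -0.85, that of MMP1 from 0.19 to 0.25 and that of MMP15 from 0.26 to 0.40. Without a filter, 25908 genes were tested, 9 of them in the set. The size rule then gave 345 higher and 476 lower genes, and 1 gene of the set, MMP14, was higher. A filter at 5 CPM left 5 and 19 of 10940 genes. TIMP3 and TIMP4 were not tested there, and 0 genes of the set were lower by the interval rule, beside 2379 of all genes. A 1.5-fold threshold gave 284 and 479 of 13942 genes, with 1 gene of the set, TIMP3, lower. These follow from more or fewer genes tested and a laxer threshold. List medians were added to these alternatives after the data were seen. Longest transcript lengths moved 8 of 14 levels in TPM past their counting interval. Leaving out a library was not run, with 1 per group. No paired analysis was possible because the groups have 1 library each and no replicate numbers. Depth limits the genes with few reads, TIMP3, TIMP4, MMP14, MMP2 and MMP9.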

Other observations

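Below a mean CPM of 1, a few ADAMTS genes had unequal counts, named here after their values were seen. ADAMTS2, ADAMTS3 and ADAMTS14 encode the proteases that trim the amino end of procollagens. ADAMTS2 had 8 counts in siControl and 0 in siCYP4F11, and the counting interval of its ratio reached up to 0.724. ADAMTS14 had 11 and 1 counts, a ratio of 0.112 with a counting interval from 0.00261 to 0.773. ADAMTS3 had 2 and 11 counts, a ratio of 6.80 (1.48 to 63.1). ADAMTS15, with 14 and 3 counts, had a ratio of 0.265 (0.0488 to 0.949). Of the 13 ADAMTS genes below that level, 9 had reads, and by the size rule 1 was higher and 3 lower. Among all 11966 genes with reads below it, 2.06% were higher and 2.52% lower by the same rule. Those shares are not matched for read number and include genes with too few reads for an interval to exclude 0. ADAM21 had 12 and 0 counts, with an interval of the ratio up to 0.445, and shares 26.8% of its 50-base words with other genes.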
